A study of Mus musculus with 75 samples.

Results

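The last interval of the longitudinal bleomycin study was described by setting the lungs of 7 mice taken on day 42 against those of 12 mice taken on day 35, 19 of the 75 mice sequenced. The mice were taken by their group labels, with earlier results of these data known, and every gene that passed a filter on low counts was tested. All 19 were BLEO-IPF mice, which had received 1 intratracheal dose of bleomycin (BLEO) when 12 to 14 weeks old and were randomized only if their weight loss on day 6 lay between 5 and 17%. They were male and of the C57BL/6JRj strain, and differed by group only in the day of termination. The 12 BLEO-IPF mice of day 28, the 12 of day 14 and the 10 control mice (CTRL) served as reference. The controls are described as saline-treated in one place and as untreated in another. Each mouse contributed 1 library from the inferior lobe, dissected after the lung had been rinsed with saline, so the values average over all cells of that lobe. Each group holds only mice that were alive on its day, and different mice were used on each day, so no mouse was followed through time.

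Bleomycin injures the alveolar epithelium. Inflammation is followed by the accumulation of fibroblasts that deposit collagen and other matrix, by recruited macrophages and by an incomplete replacement of alveolar type 1 (AT1) and type 2 (AT2) cells. In young mice given a single dose, the fibrosis can partly resolve as matrix is degraded and the epithelium is restored. The comparison asks whether the lung transcriptome was still moving between the last 2 time points or had come to rest.

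Total counts ranged from 9240291 to 14355394 on day 35 and from 10134347 to 11620555 on day 42. Of 55536 genes in the table, 16221 were tested. Values per mouse are given as CPM, the counts of a gene for every 1000000 counts of the library after scaling by TMM factors, which lay between 0.985 and 1.03 in these 19 mice. The share of counts from mitochondrially encoded genes was 1.23 to 2.15% on day 35 and 1.28 to 1.78% on day 42. Markers of the lung were high in every mouse. Sftpc, a surfactant protein of AT2 cells, ranged from 8335 to 17650 CPM on day 35 and from 13690 to 17990 CPM on day 42, and Ager, a membrane receptor of AT1 cells, from 1442 to 2489 and from 2075 to 2617 CPM.

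No gene passed the threshold between day 42 and day 35. At an adjusted p under 0.05 (edgeR quasi-likelihood test, Benjamini-Hochberg over all genes) 0 of 16221 genes were called, 0.0%, and the lowest adjusted p was 0.174. At an unadjusted p under 0.05, 359 genes (2.21%) were higher and 598 genes (3.69%) were lower on day 42. DESeq2 also called 0 genes, with 331 higher and 657 lower at an unadjusted p under 0.05, and limma voom with sample quality weights called 0, with 918 and 1166. Mice also varied more on day 35, where the median SD of log2 CPM over genes was 0.223, than on day 42, where it was 0.183. In no gene (0.0%) did the 7 day 42 mice all lie beyond the range of the 12 day 35 mice.

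The intervals around these differences show how precisely each was measured. They hold for single genes without adjustment, so a change larger than their half-width could still miss the adjusted threshold. A log2FC is the base 2 logarithm of the ratio of day 42 to day 35, so that 1 is a doubling. The median half-width of its 95% interval was 0.226. The whole interval lay within 1 log2 unit of zero for 14927 genes (92.0%) and within 0.5 for 11263 genes (69.4%). The median half-width was 0.194 for day 35 against day 28, with 12 mice on each side. Against CTRL, by contrast, 2735 genes (16.9%) were higher and 2118 (13.1%) lower on day 35, and 2215 (13.7%) were higher and 1786 (11.0%) lower on day 42. Both counts rest on the same 10 CTRL mice, and the day 42 count on fewer BLEO-IPF mice. The same holds for every count called against CTRL below.

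The step before was set beside the last one in the same fit. Between day 28 and day 35, 206 genes (1.27%) were called, 131 higher and 75 lower on day 35. Between day 28 and day 42, 141 genes (0.869%) were called, 8 higher and 133 lower on day 42. The last comparison was added after its values were seen. It shares its mice with the others, so the counts are not independent of each other.

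The 5 genes with the lowest p in each direction did not pass the threshold. Map2k5 (ENSMUSG00000058444, GRCm38 chromosome 9, 63163768 to 63377902, minus strand), a kinase of the ERK5 pathway, measured 18.9 to 25.7 CPM on day 35 (median 23.4) and 25.4 to 28.2 CPM on day 42 (median 26.7). Of the 7 day 42 mice, 6 lay above every day 35 mouse. Its log2FC was 0.21 (SE 0.05) with an adjusted p of 0.222, and stayed between 0.19 and 0.23 without any 1 mouse. The uncharacterized transcript 1700025G04Rik (ENSMUSG00000032666, chromosome 1, 151852403 to 152090125, minus strand) measured 28.8 to 38.4 CPM on day 35 and 23.7 to 28.8 CPM on day 42. Of its 7 day 42 values, 6 lay below every day 35 value (log2FC -0.30, SE 0.07, adjusted p = 0.222). Both differences were small. The genes were chosen for their low p in these same mice, which favours such separation and stability, so neither is separate support.

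The other genes at the top of this order varied more. Cyp26b1, an enzyme that degrades retinoic acid (ENSMUSG00000063415, chromosome 6, 84571414 to 84593908, minus strand), had a log2FC of 2.77 (SE 0.64, adjusted p = 0.214). This value was set by day 42 replicate 3 at 679 CPM, while the other day 42 mice reached at most 44.2 CPM and the day 35 mice 60 CPM. Without that mouse the log2FC was -0.25. Rnd1, a small GTPase, had a log2FC of 0.66 (SE 0.18, adjusted p = 0.605), Serpinb1b, a protease inhibitor, 0.72 (SE 0.21, adjusted p = 0.789), and Klf2, a transcription factor of flow-exposed endothelium, 0.55 (SE 0.17, adjusted p = 0.798). The remaining 4 of the 5 lowest on the other side were immunoglobulin variable genes, described with the plasma cell genes.

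To ask whether the injury response as a whole moved, the genes that differed between day 14 and CTRL were used. That contrast compared neither day 35 nor day 42 mice, though all 75 mice shared the fit, its filter and its estimate of spread. The CTRL mice did take part in the choice, which favours distance of these genes from CTRL. On day 14, 1350 genes were at least 2-fold higher and 782 at least 2-fold lower than in CTRL at an adjusted p under 0.05. Of the 1350, 989 had a negative and 361 a positive day 42 minus day 35 log2FC, with a median of -0.15, and the median over all genes tested was -0.00. Without day 35 replicate 6 the median of these genes was -0.07. At an unadjusted p under 0.05, 89 (6.59%) were lower and 23 (1.70%) higher, beside 3.69% and 2.21% of all genes. Without any 1 mouse the lower count lay between 50 and 152, and the higher count between 15 and 32. Against CTRL, 1003 of the 1350 were called higher on day 35 and 729 on day 42, with median log2FC of 1.20 on day 28, 0.90 on day 35 and 0.76 on day 42. Without immunoglobulin genes 1314 remained, with a median day 42 minus day 35 log2FC of -0.14. Of the 782 genes that were lower on day 14, 457 had a negative and 325 a positive log2FC, with a median of -0.06. Their median against CTRL was -0.83 on day 28, -0.50 on day 35 and -0.64 on day 42.

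In single mice, the mean log2 CPM of these genes minus the CTRL mean gave a score. For the genes that were higher on day 14 it ranged from 1.18 to 2.02 on day 14, from 0.49 to 1.54 on day 35 (median 0.98) and from 0.33 to 1.22 on day 42 (median 0.79). The 2 last groups overlapped over most of their range, and every mouse of both lay above the highest CTRL mouse at 0.07. The SD between mice was 0.35 on day 35 and 0.27 on day 42, larger than the difference between the group means of 0.91 and 0.77. For the genes that were lower on day 14 the score was -0.98 to -0.29 on day 35 (median -0.66) and -0.97 to -0.49 on day 42 (median -0.63). Every mouse of both days lay below the lowest CTRL mouse at -0.16. The genes of both scores were chosen against these CTRL mice, so the gaps to CTRL are no separate support.

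**Figure D1:**
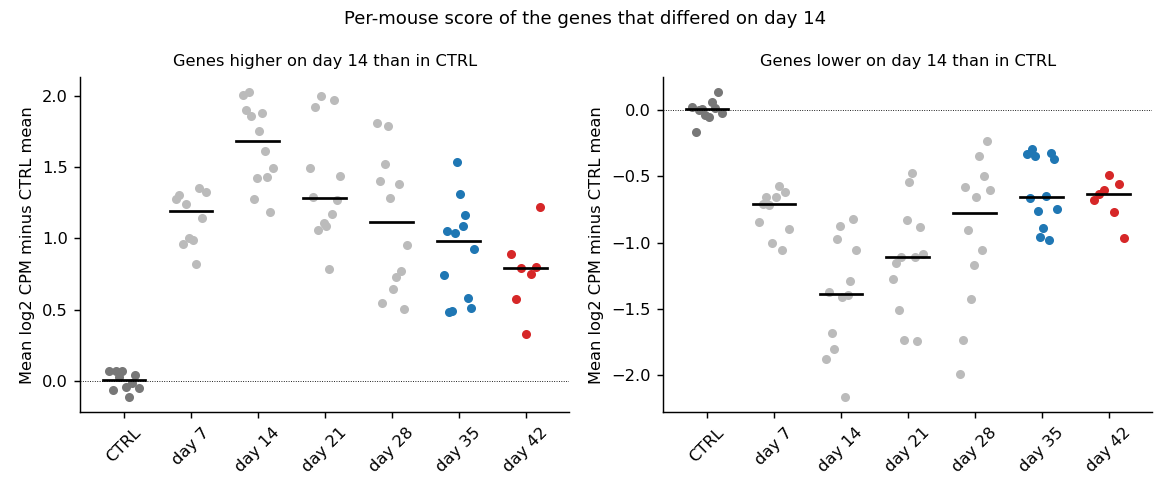
Each point is 1 mouse, plotted as the mean over genes of its log2 CPM minus the CTRL mean (y axis) by group (x axis), for the 1350 genes higher (left) and the 782 genes lower (right) on day 14 than in CTRL. Black lines are medians. Day 35 (blue) and day 42 (red) overlap on both sides, and neither overlaps CTRL (dark grey), whose mice took part in the choice of genes.

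Genes of the fibrotic matrix had lower medians against CTRL on day 42 than on day 35, with no member past the threshold between the 2 days. Of 26 genes for fibrillar and associated collagens and their crosslinking enzymes, 22 had a negative log2FC (median -0.22). At an unadjusted p under 0.05, 1 (3.85%), Col6a1, was lower, beside 3.69% of all genes. Without day 35 replicate 6, the mouse with the highest summed CPM of this list, the median was -0.11. Against CTRL, 19 of the 26 were called higher on day 35 and 11 in the fewer mice of day 42, with medians of 0.74 and 0.47. Col1a1, the main chain of type I collagen (ENSMUSG00000001506, chromosome 11, 94936224 to 94953042, plus strand), measured 457 to 1934 CPM on day 35 (mean 766 ± 414, SD, n = 12) and 369 to 762 CPM on day 42 (mean 536 ± 131, SD, n = 7). In CTRL it measured 233 to 443 CPM. The 3 highest values were all on day 35, and 2 day 42 mice lay below every day 35 mouse. Its log2FC was -0.52 with a 95% interval from -1.20 to 0.17 (adjusted p = 0.840).

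Col3a1, the chain of type III collagen, had a log2FC of -0.39 (interval -0.79 to 0.01), Col5a2 -0.32, Col6a1 -0.28 and Col15a1 -0.25. Against CTRL the log2FC of Col3a1 was 1.43 on day 35 and 1.04 on day 42, and both were called. That of Col1a1 was 1.21 on day 35, which was called, and 0.70 on day 42, which was not (adjusted p = 0.130). With fewer mice on day 42, this difference in calls does not by itself show a fall. Col11a1, a fibrillar collagen of the same list, had the most negative value in it at -1.34.

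Of 24 genes for matricellular and elastic fibre proteins 20 were negative, with a median of -0.27. This median was -0.12 without day 35 replicate 6, -0.16 without replicate 5, -0.17 without replicate 7 and -0.11 with voom. Thrombospondin 4 (Thbs4, -1.45), lumican (Lum, -1.10) and decorin (Dcn, -0.56) were lower at an unadjusted p under 0.05, and Ccn1, a YAP and injury responsive protein, was higher (0.52). The lower share was 12.5% and the higher 4.17%, beside 3.69% and 2.21% of all genes. Dcn measured 159 to 289 CPM on day 35 and 111 to 196 CPM on day 42, and 5 of the 7 day 42 mice lay below every day 35 mouse. Its adjusted p was 0.798. Fibronectin (Fn1, -0.47), tenascin C (Tnc, -0.32) and Cthrc1, a marker of collagen-producing fibroblasts (-0.53), had intervals that included zero. Periostin (Postn) was at -0.03 with an interval from -0.20 to 0.14, and Acta2, smooth muscle actin, at -0.04 with an interval from -0.38 to 0.31. Neither was called against CTRL on either day. Of 29 matrix proteases and inhibitors, 19 had a negative log2FC (median -0.02), and 18 were called higher than CTRL on day 35 and 16 on day 42. Timp1, an inhibitor of these proteases, was at 0.09 (interval -0.87 to 1.05). Genes overlapping Timp1 on the opposite strand held counts equal to 10.7% of its own, and whether strand was used in counting is not given in the sources used here.

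The TGF-beta, activin and BMP genes, which include the ligands and receptors that drive matrix production, had a median of -0.00 over 35 members (17 positive, 18 negative). The ligand Tgfb1 was at 0.05 (interval -0.14 to 0.24), and Ccn2, its target, at 0.26 (interval -0.20 to 0.73). Of the 35, 13 were higher and 10 lower than CTRL on day 35, and 9 and 8 on day 42.

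**Figure D2:**
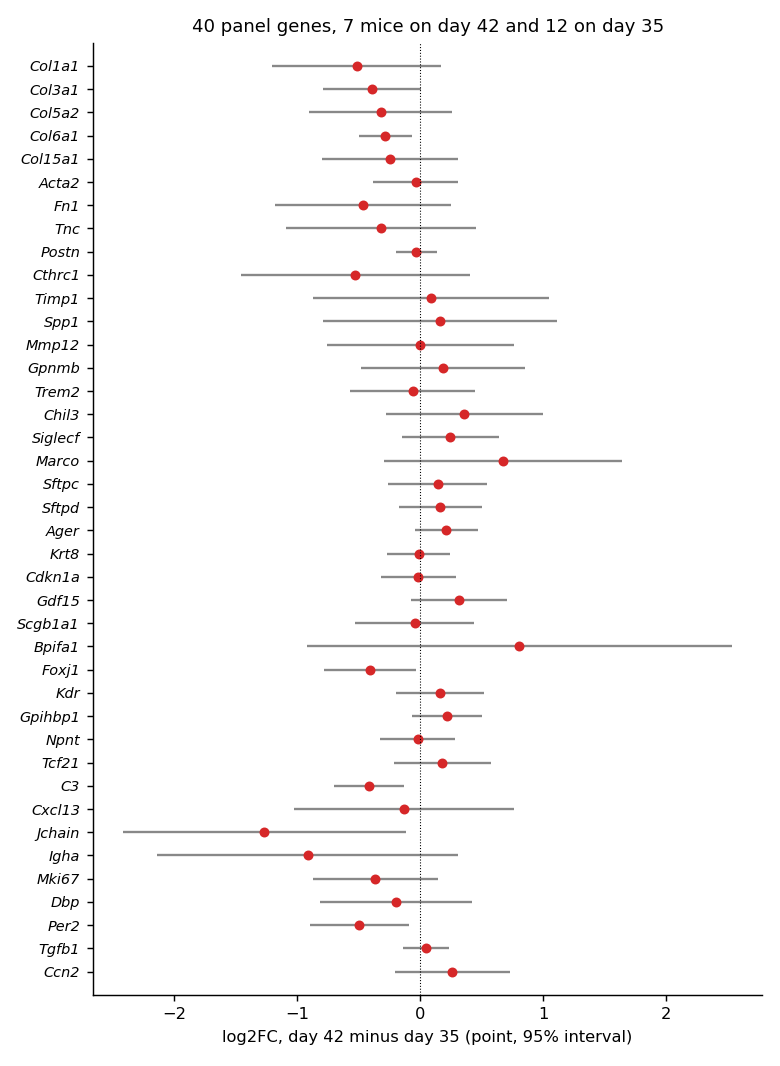
Day 42 minus day 35 log2FC (x axis, point) with its 95% interval (grey line) for a panel of 40 genes (y axis). All are shown whatever their values here, and the panel was chosen with earlier results of these data known. Of the collagens Col6a1 alone has an interval clear of zero. Cdkn1a, Krt8 and Postn lie near zero, and the interval of Postn is the narrowest among them.

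Markers of profibrotic macrophages lay above CTRL on both days, with medians that were close. The 20 markers of profibrotic and monocyte-derived macrophages had a median of 1.06 against CTRL on day 35, with 17 called higher, and of 1.07 on day 42, with 16 called higher. Between the 2 days their median was -0.03, with 9 positive and 11 negative. Spp1, which encodes osteopontin, measured 191 to 2107 CPM on day 35 and 188 to 2659 CPM on day 42, against 27 to 122 CPM in CTRL. The mice of each day spread over more than 10-fold, and the groups overlapped throughout. Its log2FC against CTRL was 3.92 and 4.07, and its day 42 minus day 35 log2FC 0.16 (interval -0.79 to 1.11). Gpnmb (0.19), Trem2 (-0.06) and the elastase Mmp12 (-0.00) were also called higher than CTRL on both days. Without day 42 replicate 7 the value of Spp1 was -0.18 and that of Gpnmb -0.06, so the sign of neither is settled. Of 16 markers of resident alveolar macrophages 13 were positive, with a median of 0.18. Their median against CTRL was 0.34 on day 35, with 7 called higher and 3 lower, and 0.73 on day 42, with 7 and 2. Chil3 (0.36), Siglecf (0.25) and the scavenger receptor Marco (0.67) had intervals that included zero.

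Genes of stress and growth arrest also had close values on the 2 days. Cdkn1a, the p53 target p21, measured 105 to 159 CPM on day 35 and 107 to 144 CPM on day 42, against 22.6 to 49.3 CPM in CTRL. Its log2FC was -0.01 with an interval from -0.32 to 0.29, and 2.04 and 2.02 against CTRL. Gdf15, a stress-induced cytokine, was at 0.31 (interval -0.08 to 0.70). Of the 20 p53 targets, CDK inhibitors and senescence genes, 17 were called higher than CTRL on day 35 and 14 on day 42. Cell cycle and replication genes had 25 of 28 negative values and a median of -0.19. Without 1 mouse that median lay between -0.32 and -0.08. Against CTRL their median was 0.61 on day 35, with 19 called higher, and 0.46 on day 42, with 6 called higher in a group of fewer mice. From day 28 to day 42, 12 of the 28 were called lower. Mki67, a marker of dividing cells, measured 18.1 to 72.7 CPM on day 35 and 16.2 to 49.4 CPM on day 42 (log2FC -0.37, interval -0.87 to 0.14).

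In the alveolar epithelium the values were small and mostly positive. Of 12 AT1 markers 11 had a positive log2FC (median 0.13), and of 13 tested AT2 markers 12 (median 0.12). Chi3l1 was not tested. Ager was at 0.21 (interval -0.04 to 0.47), and 4 of the 7 day 42 mice lay above every day 35 mouse. Sftpc was at 0.14 (interval -0.26 to 0.55) and Sftpd at 0.16 (interval -0.18 to 0.50). Markers of the transitional state between AT2 and AT1 cells had a median of 0.96 against CTRL on day 35 and of 1.10 on day 42, with 11 of 15 called higher on both days. Krt8, the keratin that names this state, was at -0.01 (interval -0.27 to 0.24). Krt5, a keratin of basal cells, measured 0 to 15.9 CPM on day 35 (median 5.46) and 0.0858 to 15.7 CPM on day 42 (median 3.56), while no CTRL mouse exceeded 0.0955 CPM. In a bulk sample, fewer cells of a type and less RNA per cell cannot be told apart, here and for every other cell type.

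Ciliated cell genes had lower fitted values on day 42 in nearly every marker. These cells move mucus along the airway by motile cilia, built from dynein arms and radial spokes under the transcription factor Foxj1. Of 14 markers 13 had a negative day 42 minus day 35 log2FC, with a median of -0.42, and 7 were lower at an unadjusted p under 0.05, a share of 50% where 3.69% of all genes were. In 9 of the 14 (64.3%) all 7 day 42 mice lay below the day 35 median, which held for 4.30% of all genes. None passed the adjusted threshold (lowest adjusted p 0.798). The axonemal dynein Dnah9 (ENSMUSG00000056752, chromosome 11, 65831282 to 66168551, minus strand) measured 20.1 to 47.1 CPM on day 35 (median 33.9) and 16.3 to 26.8 CPM on day 42 (median 19.2), with 23.6 to 52 CPM in CTRL. The groups overlapped, but 4 day 42 mice lay below every day 35 mouse (log2FC -0.66, SE 0.23, adjusted p = 0.798). Dnah5 was at -0.64 and Foxj1 at -0.41. Tppp3 was the member with a positive value (0.09).

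Against CTRL the ciliated values did not run in the order of the days. The median of the ciliated markers was -0.84 on day 28, -0.20 on day 35 and -0.63 on day 42. On day 35, 0 of 14 were called lower than CTRL, and on day 42, 8 were. Their summed CPM was 636 to 892 in CTRL, 118 to 712 on day 28, 404 to 868 on day 35 and 452 to 603 on day 42. Without day 35 replicate 1, the mouse with the highest sum, 4 of the 14 were lower at an unadjusted p under 0.05, with 7 as the count in all mice.

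Club and secretory markers had 11 of 12 negative values (median -0.20), and the positive one stood at 0.81. At an unadjusted p under 0.05, 4 (33.3%) were lower, beside 3.69% of all genes. The median was -0.74 without day 42 replicate 1 and -0.65 with voom, and the count was 2 without day 42 replicates 2, 4 or 5 or day 35 replicate 7. The 4 were the mucins Muc5b (-1.19) and Muc5ac (-1.04), Bpifb1 (-2.0) and the lectin Reg3g (-3.15), which are induced in inflamed airways. Reg3g measured 0.416 to 29.1 CPM on day 35 and 0 to 1.90 CPM on day 42, and every day 42 mouse lay below the day 35 median of 4.26. Clca1, a product of mucous cells named after its values were seen, measured 0.188 to 24.7 CPM on day 35 and 0 to 0.482 CPM on day 42 (log2FC -4.93, SE 1.28, adjusted p = 0.380). Its highest count in any day 42 mouse was 5. The main club cell product Scgb1a1 stood at -0.05 (interval -0.53 to 0.44), with 8601 to 20750 CPM on day 35 and 11370 to 18130 CPM on day 42. How much airway each piece of lobe held was not tested.

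**Figure D3:**
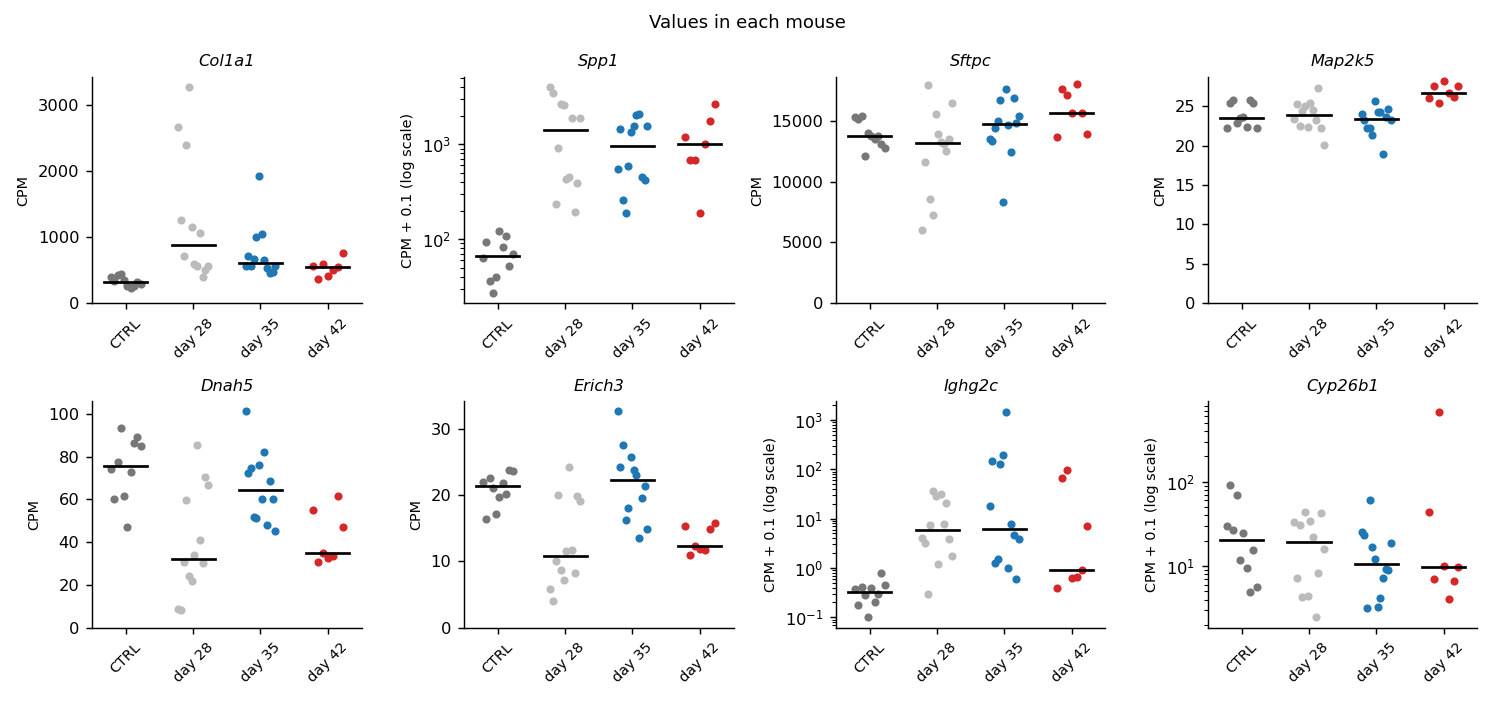
CPM in each mouse (points) by group (x axis) with group medians (black lines), on a linear axis from 0 or, for Spp1, Ighg2c and Cyp26b1, as CPM plus 0.1 on a log axis. Dnah5 and Erich3 lie lower on day 42 than on day 35 in most mice, Ighg2c is spread over orders of magnitude on both days, and 1 day 42 mouse alone is high in Cyp26b1.

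Immunoglobulin genes had large differences between the days and a wide spread between mice. They are transcribed by plasma cells, which secrete antibody. Of 14 tested plasma cell and immunoglobulin genes (Mzb1 and Tnfrsf17 were not tested) 13 had a negative log2FC, with a median of -1.01. At an unadjusted p under 0.05, 8 (57.1%) were lower, beside 3.69% of all genes. That count was 0 without day 35 replicate 7, 3 without replicate 5 and 3 in a fit of the day 35 and day 42 mice alone, and between 0 and 9 without any 1 mouse. Against CTRL their median was 2.87 on day 35 and 1.70 on day 42. Of 264 annotated immunoglobulin genes 138 were tested, and 124 were negative and 14 positive (median -1.29). At an unadjusted p under 0.05, 64 (46.4%) were lower and 2 (1.45%) higher, beside 3.69% and 2.21% of all genes. In the fit of the day 35 and day 42 mice alone, 29 of 101 tested were lower. With at least 10 counts in every mouse 7 genes were kept, 4 of them lower. Genes can pass the filter through the mice where they are high, so these genes are not separate support for a fall. Of the 138 genes, 114 were called higher than CTRL on day 35 and 49 on day 42. Ighg2c, the constant region of the IgG2c heavy chain (ENSMUSG00000076612, chromosome 12, 113285325 to 113288932, minus strand), measured 0.504 to 1464 CPM on day 35 (median 6.09) and 0.296 to 98.8 CPM on day 42 (median 0.794). In CTRL it reached at most 0.692 CPM. Its log2FC was -2.71 with an interval from -4.76 to -0.66 (adjusted p = 0.811), and -0.87 without day 35 replicate 7.

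The difference was uneven among mice. The summed CPM of the immunoglobulin genes was 770 to 11960 on day 35 (median 1293) and 762 to 4226 on day 42 (median 1085). For the variable genes alone the median sums were 253 and 165 CPM. As a mean log2 CPM relative to CTRL, which weights every gene alike, the immunoglobulin genes had a median of 1.26 on day 35 (0.18 to 3.62) and of 0.57 on day 42 (0.27 to 2.46), and 5 of 7 day 42 mice lay below the day 35 median. Of 125 variable genes, 45 had their highest value among the 19 mice in day 35 replicate 5, 29 in replicate 2 and 22 in replicate 7, and 11 in any day 42 mouse. Igkv4-61, the gene with the lowest p (ENSMUSG00000076552, chromosome 6, 69416893 to 69417455, minus strand), measured 73 CPM in day 35 replicate 5 and at most 2.77 CPM in the other day 35 mice, with at most 0.869 CPM on day 42. Its log2FC was -4.66 (SE 0.99, adjusted p = 0.174), and -1.79 without that mouse (adjusted p = 0.825). Igkv3-10 (-3.50, adjusted p = 0.214), Igkv4-80 (-3.37, adjusted p = 0.214) and Ighv5-16 (-3.83, adjusted p = 0.222) were the other 3 of the lowest p. Some variable genes are close in sequence to others, and reads may be split among these, so single members are uncertain. Without day 35 replicate 5, 42 immunoglobulin genes were lower at an unadjusted p under 0.05, and without replicate 7, 39.

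Igha, the constant region of the mucosal antibody IgA, was at -0.91 (interval -2.14 to 0.31), and Jchain, which joins IgA and IgM into multimers, at -1.26 (interval -2.41 to -0.12). Both were called higher than CTRL on both days. Of 14 B cell markers, which include the heavy chain genes Ighd and Ighm, 9 were positive, with a median of 0.04. Ighm, the IgM heavy chain, was the lowest at -1.34 and the only one lower at an unadjusted p under 0.05 (7.14%, beside 3.69% of all genes).

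Among chemokines and cytokines the signs were mixed. Of 35 tested (Ccl21a was not), 7 were higher and 3 lower at an unadjusted p under 0.05, which is 20% and 8.57% beside 2.21% and 3.69% of all genes. The neutrophil chemoattractants Cxcl5 (1.32), Cxcl2 (1.3) and Cxcl1 (0.73) and the cytokines Il6 (1.57), Il1b (0.53) and Il1a (0.41) were on the higher side, with Ccl6 (0.39). Tnf (-0.80), Ccl8 (-0.89) and the eosinophil chemoattractant Ccl11 (-0.71) were on the lower side. Il6 measured 0.202 to 1.05 CPM on day 35 and 0.173 to 5.04 CPM on day 42, at most 51 counts in a mouse. The highest 2 values were both on day 42 and the lowest was too (adjusted p = 0.798). Without 1 mouse the number of higher members lay between 3 and 7, with 3 as the count without day 42 replicate 1. In a fit of the day 35 and day 42 mice alone 1 of 30 tested was higher and 3 were lower, so the excess of higher members was not seen there. Of 11 tested neutrophil markers 9 were positive (median 0.36, and 0.10 to 0.49 without 1 mouse), and the granule protein Ngp was at 2.05 with 3 of 7 day 42 mice above every day 35 mouse. Ly6g, Camp and Mpo were not tested.

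Complement and interferon genes leaned the other way. Of 16 complement genes 14 were negative (median -0.29, and -0.31 to -0.23 without 1 mouse). At an unadjusted p under 0.05, 5 (31.25%) were lower, beside 3.69% of all genes, among them C3, C4b, C1s1 and C1ra. The central component C3 measured 774 to 1963 CPM on day 35 and 629 to 1035 CPM on day 42, and 4 day 42 mice lay below every day 35 mouse (log2FC -0.42, SE 0.14, adjusted p = 0.798). Of 30 interferon-stimulated genes 23 were negative (median -0.22), and Mx1 (-0.73), Oas3 (-0.73), Irf7 (-0.39) and Ifit3 (-0.31) were lower at an unadjusted p under 0.05, which is 13.3% beside 3.69% of all genes. Without day 35 replicate 12 the count was 1 and the median -0.14, and without any 1 mouse the count lay between 1 and 8. MHC class II genes had a median of -0.10, with 8 of 10 called higher than CTRL on day 35 and 7 on day 42. Of 23 tested T and NK cell genes 15 were negative. The helper T cell receptor Cd4 (-0.59) and the checkpoint receptor Ctla4 (-1.08) were lower at an unadjusted p under 0.05, which is 8.70% beside 3.69% of all genes.

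Endothelial markers had a negative median against CTRL on both days. Of 16 capillary and venous markers 15 were positive between the 2 days (median 0.20). Without day 42 replicate 4 that median was 0.11. Against CTRL 10 were called lower and 2 higher on day 35, and 5 and 2 on day 42, with medians of -0.44 and -0.34. Kdr, the main VEGF receptor, measured 231 to 565 CPM on day 35 and 281 to 620 CPM on day 42, against 574 to 722 CPM in CTRL (log2FC 0.16, interval -0.20 to 0.52). Ackr1, a venular chemokine receptor, measured 0.252 to 5.31 CPM on day 35 and 0.515 to 4.45 CPM on day 42, and was called higher than CTRL on both days. Alveolar and adventitial fibroblast markers had a median of -0.02, with Tcf21 at 0.18 (interval -0.22 to 0.58) and Npnt at -0.02.

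**Figure D4:**
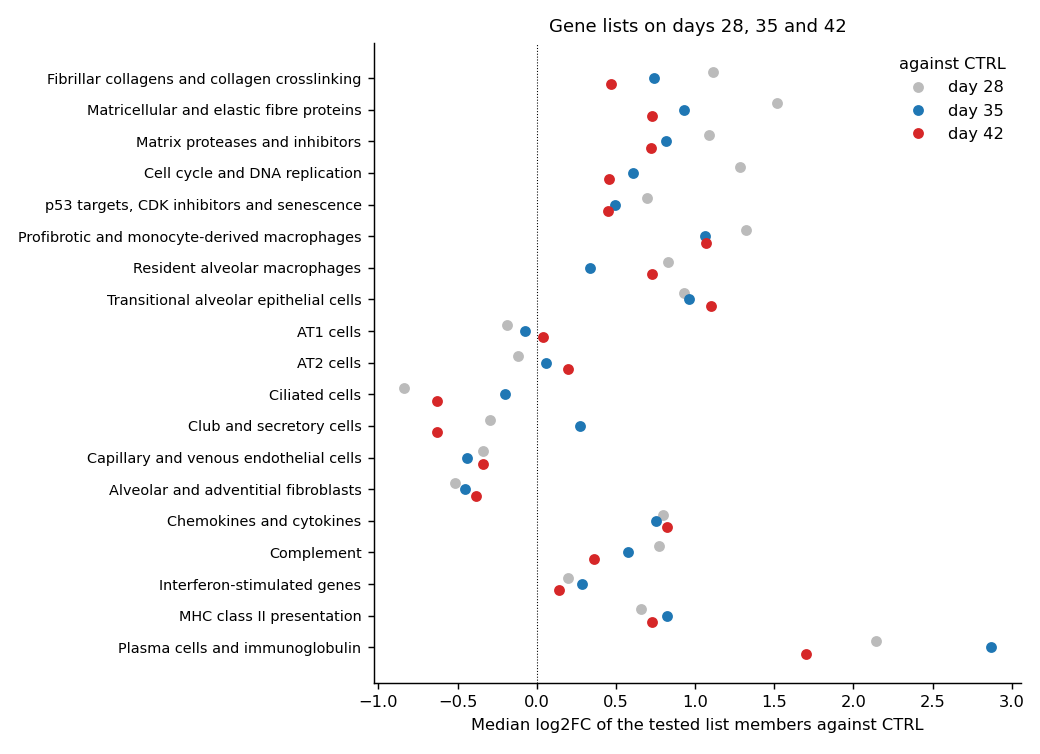
Median log2FC against CTRL (x axis) of the tested members of 19 gene lists (y axis) on day 28 (grey), day 35 (blue) and day 42 (red), all against the same 10 CTRL mice and with no list test. Matrix, cell cycle and complement lists step toward zero from day 28 to day 42. The profibrotic macrophage and transitional cell lists do not do so between day 35 and day 42. The ciliated list lies further from zero on day 42 than on day 35. The club and secretory list lies above zero on day 35 (0.27) and below it on day 42 (-0.63).

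Genes that respond within minutes or follow the hour of the day were also described, and none passed the adjusted threshold. Of 24 immediate early and heat shock genes 17 were positive (median 0.17), with Klf2, Klf4 (0.40), Dusp1 (0.54), Zfp36 (0.25), Ier2 (0.26) and Jund (0.25) higher and Hsph1 (-0.44) lower at an unadjusted p under 0.05. The 6 higher members are 25% of the list beside 2.21% of all genes, and their count was 2 without day 42 replicate 2 and between 2 and 9 without any 1 mouse. Of 20 clock genes Per2 (-0.49), Hlf (-0.46) and Usp2 (-0.32) were lower and Npas2 (0.64) higher at an unadjusted p under 0.05. The 3 lower members are 15% of the list beside 3.69% of all genes, and their count lay between 0 and 7 without any 1 mouse. Against CTRL the median of the clock genes was -0.57 on day 35, with 12 called lower and 4 higher, and -0.64 on day 42, with 13 and 3. Of all genes, 13.1% were called lower than CTRL on day 35 and 11.0% on day 42. The hour of tissue sampling was not analysed here, and its part in these values and in the other comparisons with CTRL was not tested. Fatty acid and cholesterol synthesis (median 0.02), the unfolded protein response (-0.09), nuclear-encoded respiratory chain (0.06) and iron and haem handling (-0.08) showed medians under 0.1 in size.

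Tissue other than lung was measured through its markers. The 12 cardiac muscle genes summed to 105 to 536 CPM on day 35 and 46.1 to 252 CPM on day 42, with all 12 negative (median -0.95). Red cell genes summed to 412 to 1625 CPM and 635 to 1443 CPM, with 7 of 7 tested positive (median 0.44). Adipose markers reached 46.2 CPM on day 35 and 51 CPM on day 42, and 2299 CPM in 1 mouse of day 28, and skeletal muscle markers reached 14.2 and 9.09 CPM. The part of these tissues in the differences above was not tested.

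Whether the last step differed from the one before was tested as the day 42 minus day 35 log2FC less the day 35 minus day 28 log2FC. Both steps contain the day 35 mice, with opposite sign, so the 2 steps are not independent. The test called 17 genes (0.105%), all 17 with a more negative last step, and 0 with a more positive one. These were named after their values were seen. Of them 11 were immunoglobulin genes, among them Ighg2c, Ighg3 and Igkv4-61. Ighg3 had a log2FC of 4.07 from day 28 to day 35 and of -2.20 from day 35 to day 42 (adjusted p of the difference = 0.020).

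The other 6 were 4930562C15Rik, 1700030J22Rik, Calml4, Ankrd42, Ptprz1 and Erich3. Erich3, a protein of cilia (ENSMUSG00000078161, chromosome 3, 154663859 to 154767790, plus strand), measured 3.97 to 24.3 CPM on day 28 (median 10.8), 13.6 to 32.8 CPM on day 35 (median 22.3) and 10.9 to 15.8 CPM on day 42 (median 12.3). In CTRL it measured 16.5 to 23.9 CPM. All 7 day 42 mice lay below the day 35 median, and 4 below every day 35 mouse. It rose by 0.78 from day 28 to day 35 (adjusted p = 0.029), and the last step was -0.71 (SE 0.22, adjusted p = 0.798), with an adjusted p of 0.041 for their difference. 4930562C15Rik measured 9.96 to 22.5 CPM on day 35 and 4.89 to 10.6 CPM on day 42, and 5 day 42 mice lay below every day 35 mouse (log2FC -0.94, SE 0.24, adjusted p = 0.380). In all 6 genes every day 42 mouse lay below the day 35 median, a pattern seen in 4.30% of all genes. The test that chose these genes favours high values on day 35, so this is no separate support. Genes overlapping Ankrd42 on the opposite strand held more counts than Ankrd42 itself (165%), so its value is uncertain.

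The count of 17 depended on the fit. It was 40 with DESeq2, 2 with the replicate number as a block and 0 when only genes with at least 10 counts in every mouse were kept, and between 5 and 21 without 1 mouse of day 35 or day 42.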

How the data were processed

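The authors isolated RNA from the inferior lobe, made stranded libraries, sequenced them single-end, aligned reads with STAR 2.7.0f to GRCm38 with Ensembl release 96 and deposited raw counts per gene. The counting program and its use of strand are not given in the sources used here. All 55536 identifiers matched the annotation of that release. Groups and replicate numbers came from the sample titles. The mice, gene lists, the 40 panel genes and the rule for named genes were chosen with earlier results of these data known.

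Counts of all 75 mice were fitted with edgeR 4.0.16 (R 4.3.3), using filterByExpr, TMM factors, 1 mean per group and the quasi-likelihood F test. P-values were adjusted by Benjamini-Hochberg over 16221 genes at a threshold of 0.05. Intervals are 95% intervals of the fitted log2FC. CPM for display used TMM factors, and scores used log2 CPM with a prior count of 2. The steps were tested on simulated counts. Lists (17 pathways, 21 markers, 666 genes of which 638 tested) were described by counts and medians, without a list test. Named were the 5 lowest p in each direction, as fewer than 6 genes passed, the panel, and list members that were extreme in their list. Other genes are said to be chosen after their values were seen, and further list members are named as those under an unadjusted p of 0.05.

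Alternatives were DESeq2 1.42.0, limma 3.58.1 voom with sample quality weights, library size or upper quartile scaling, no filter or a stricter one (10 counts or more in each of the mice), a model restricted to the 19 day 35 and day 42 libraries, the replicate number as a block, replicates 1 to 7 only, an absolute log2FC of at least 0.5, day 14 genes without a fold threshold, and leaving out each mouse. The comparison of day 42 with day 28, leaving out mice for the test of 2 steps, and the alternatives for lists, were added after seeing the data. No 2 mice of a group were close enough to be 1 library (chi-square per degree of freedom at least 5.87 in 87 pairs). Nothing in the sources used here gives a processing batch. Tables and figures used Python 3.11.15, pandas 2.3.3, numpy 2.4.6 and matplotlib 3.10.9.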

Additional observations from a re-analysis of the deposited data

Results flagged for a closer look

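Among the 7 day 42 mice, 79 values (the named genes and both scores) were checked for a mouse far from the others on the log2 scale by Dixon's test, which flags about 1 in 20 groups by chance. It flagged 4. Replicate 7 stood high in Cthrc1 at 18.5 CPM, with a group median of 5.95 CPM. Replicate 4 stood low in Sftpd at 932 CPM, with a group median of 1245 CPM. Replicate 3 stood high in the variable genes Igkv1-88, at 2.94 CPM with a median of 0.259 CPM, and Igkv8-21, at 5.71 CPM with a median of 0.988 CPM. The 12 day 35 mice were too many for this test.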

How the results depend on the processing

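The number of genes called between day 42 and day 35 was 0 under 28 of 29 alternatives, among them all 19 refits without 1 mouse (lowest and highest count 0, lowest adjusted p between 0.0627 and 0.365). With replicates 1 to 7 only it was 2, Igkv4-61 (-5.44, adjusted p = 0.035) and Ighv5-16 (-4.48, adjusted p = 0.037), both lower. With the replicate block it was 0 (lowest adjusted p 0.591). Of 7 same-numbered pairs 3 had a correlation of deviations above 0.1 (range -0.07 to 0.41). Their median was 0.04, and that of other pairs -0.05. Of 7 day 42 mice 2 correlated best with their own number. With so few pairs these values cannot decide whether the replicate numbers pair the mice. The test of the 2 steps called 17 genes, 40 with DESeq2 (15 of the 17 among them), 278 with voom and sample quality weights (9 of the 17), 375 with replicates 1 to 7 only (15 of the 17), 2 with the replicate block and 0 with at least 10 counts in every mouse, a filter that leaves 13099 genes. Without 1 mouse it called 5 to 21, and under 12 without day 35 replicates 1, 2, 5, 6 or 7 or day 42 replicates 2, 4, 5 or 7. The cause of these differences was not tested. The median of the genes higher on day 14 was negative under all 29 alternatives, from -0.22 to -0.01. That of the genes lower on day 14 was negative under 26 and slightly positive with the replicate block (0.01), replicates 1 to 7 only (0.01) and no fold threshold (0.00). Of 77 named genes, 62 kept 1 sign throughout. The ciliated markers that were lower at an unadjusted p under 0.05 numbered 11 in the fit of 2 groups and 12 with voom, and the collagens between 1 and 7.

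The 7 mice of day 42 and the spread between mice limit these values: genes with wide intervals, such as Spp1, Bpifa1 and the immunoglobulins, could have differed 2-fold or more unseen. Means of a lobe do not separate cell number from RNA per cell.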
